A study of Mus musculus with 12 samples.

Results

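The transcription factor NRF2, encoded by Nfe2l2, its repressor Keap1 and 8 enzymes under its control were followed in mouse ear skin after injection of IL-17A, IL-36γ or both. The 10 genes (Nfe2l2, Keap1, Nqo1, Hmox1, Gclc, Gclm, Gsr, Txnrd1, Srxn1 and G6pdx) were chosen by name as the core of the NRF2 antioxidant pathway and matched by gene symbol to the 50684 genes of the count table. All 10 were found, and all 10 passed the filter on low counts, which kept 19408 genes.

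RNA-Seq was performed on ear tissue of 12 C57BL/6 mice, which were female and 8 weeks old. RNA came from 1 part of the ear, without separation of its cells. The 4 groups received PBS alone, IL-17A, IL-36γ, or IL-17A + IL-36γ. Injections were intradermal into the ear pinna, with 1 µg of each cytokine in 5 µl of PBS. The ears were taken on day 4, after what the study describes as 4 days of consecutive treatment. The PBS group therefore shared the injections themselves with the other groups. Each group held 5 mice, of which 3 were sequenced at random, so that every value below rests on 3 libraries per group, each from the ear of 1 animal.

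In cells at rest, KEAP1 binds NRF2 in the cytoplasm and directs its ubiquitination and degradation. Oxidants and electrophiles modify cysteines of KEAP1, NRF2 accumulates, enters the nucleus, pairs with a small MAF protein and binds antioxidant response elements near its targets. These targets make glutathione, reduce thioredoxin, supply NADPH, degrade heme and detoxify quinones, and in skin the pathway is known for protecting keratinocytes from oxidants and for shaping epidermal differentiation. Because NRF2 is controlled mainly through its protein, the transcript level of Nfe2l2 is not a measure of its activity, and protein was not measured here.

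The antioxidant response element was searched in the promoters of the 10 genes, since it is the sequence through which NRF2 acts. RefSeq promoters of 300 bases (250 bases before to 50 bases after the start, build GRCm38.p6) were at hand for 7 of the 10 genes, with 9 starts in all; Hmox1, Gclc and Gsr had no entry in the table used. The core TGACNNNGC, read on both strands, stood in the promoters of 5 of these 7 genes, Nfe2l2, Gclm, Txnrd1, Srxn1 and G6pdx, against 14% of 27025 genes and 12.4% of 32851 promoters. The related TGACTCA, a binding sequence of AP-1 that also matches the first motif when GC follows it, stood in 1 of the 7, Srxn1, where it occurred at 2 places, against 5.95% of genes. Neither sequence stood in the windows of Keap1 and Nqo1, which says only that these letters are not in these 300 bases. The stretches around the motifs that lie before a start are printed with the motif in capitals, each 5′ to 3′ along the strand of its gene, so that the flanks can be compared.
Nfe2l2, chr2:75704885-75704913, minus strand, motif 240 bases before the start: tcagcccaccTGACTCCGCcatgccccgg
Gclm, chr3:122245413-122245441, plus strand, motif 134 bases before the start, on the opposite strand: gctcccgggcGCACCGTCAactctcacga
Txnrd1, chr10:82859104-82859132, plus strand, motif 92 bases before the second of 3 starts, on the opposite strand: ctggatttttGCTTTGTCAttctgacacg
G6pdx, chrX:74428919-74428947, minus strand, motif 57 bases before the start, on the opposite strand: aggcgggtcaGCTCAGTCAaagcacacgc
Srxn1, chr2:152105412-152105438, plus strand, TGACTCA on the opposite strand, 102 bases before the start: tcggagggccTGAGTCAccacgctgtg
Srxn1, chr2:152105469-152105495, plus strand, TGACTCA on the opposite strand, 45 bases before the start: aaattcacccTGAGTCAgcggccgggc
The TGACNNNGC of Srxn1 lay 28 bases after its start and is not shown. A match of letters describes the sequence and was not tested for binding.

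Library totals ranged from 25293468 to 34759293 counts. PBS replicate 1 stood apart from the other PBS libraries before any treatment was compared: its summed level of 10 skeletal muscle genes was 485 CPM (counts scaled to a common library total) against 3844 and 3357, and that of 6 proliferation genes was 645 CPM against 320 and 330. Its sum of keratinocyte genes was also the highest, at 19990 CPM against 14336 and 14239, as was that of sebaceous genes, at 9953 against 6131 and 7710. Its sums of adipocyte, cartilage and endothelial genes were the lowest of the PBS libraries. PBS replicate 1 was the highest of the 3 PBS libraries for all 10 genes of the pathway, whereas this held for 44.2% of all tested genes. The main counts against PBS are therefore also given without PBS replicate 1. Since it was the highest PBS library for all 10 genes, leaving it out moves their changes against PBS upward by construction. IL-17A replicate 1 also stood apart in its group, with 2236 CPM of 4 stress keratin genes against 635 and 578. The chi-square per gene against the other libraries of its group was 26.8 and 34.8, and 6.32 between those. For PBS replicate 1 it was 42.6 and 33.0, and 5.03 between the others. Levels are CPM corrected by the trimmed mean of M values (TMM), and changes are log2 fold changes from edgeR's quasi-likelihood test fitted to all 12 libraries. Genes count as raised or lowered where the p-value, adjusted by Benjamini-Hochberg over the 19408 genes, was below 0.05.

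After the combination, 6 of the 10 genes were raised and none was lowered, beside 44.6% of all tested genes called in either direction and 23.7% called raised. Hmox1 rose most, 2.94-fold, followed by G6pdx, Gsr, Gclm, Srxn1 and Nfe2l2, and Hmox1 alone passed a log2 fold change of 1, as did 7.35% of all tested genes in this direction. IL-36γ alone raised 5 genes (Hmox1, G6pdx, Gsr, Gclm and Srxn1), beside 28.4% of all genes called and 17.3% called raised. IL-17A alone raised 2 genes (Hmox1 and Srxn1), beside 10.9% called and 7.44% called raised, and neither cytokine alone moved a member past a log2 fold change of 1, beside 1.07% of all genes raised that far by IL-17A and 5.11% by IL-36γ. Keap1, Nqo1, Gclc and Txnrd1 were called in none of these comparisons. Without PBS replicate 1 the counts were 5 with IL-17A, 6 with IL-36γ and 7 with both, while the calls over all tested genes went from 2120 to 4571, from 5519 to 7332 and from 8664 to 9716. The IL-17A count was 0 when PBS replicate 3 or IL-17A replicate 1 was dropped, beside 21 and 81 of all genes. It was 1 (Hmox1) when any of the other 9 libraries was dropped. The IL-36γ count fell to 3 without PBS replicate 2, PBS replicate 3, IL-36γ replicate 1 or IL-36γ replicate 2. Calls over all genes were then 3486, 2987, 3425 and 3412. The 3 comparisons share the PBS libraries, so that they are not independent of each other.

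**Figure D1:**
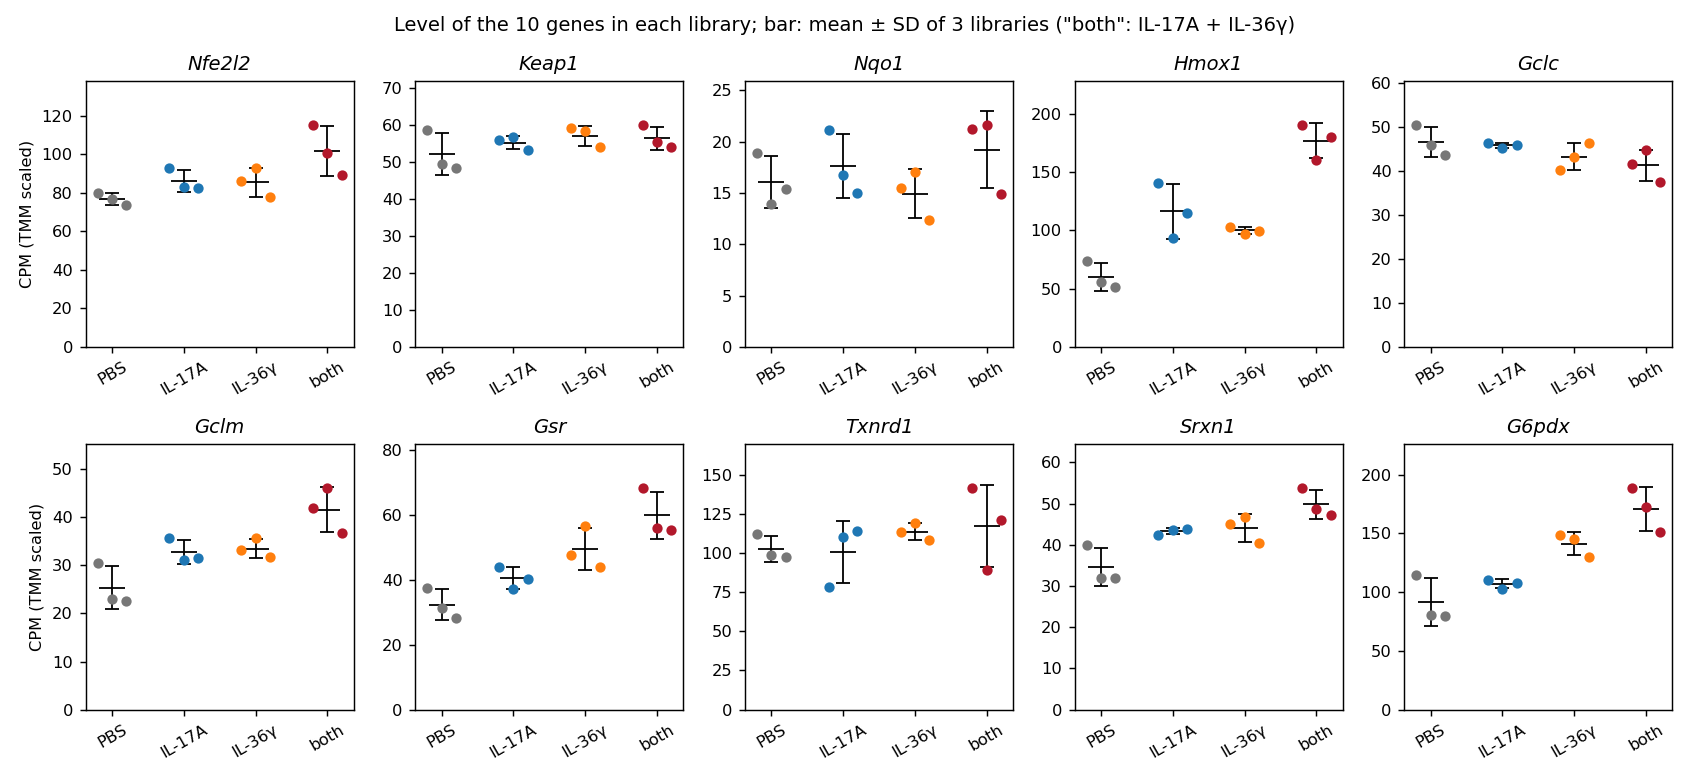
Level of each of the 10 genes in CPM (vertical axis, starting at 0) in the 12 libraries, 1 point per mouse in the order of the replicate numbers, with the mean and SD of 3 libraries per group ("both" is IL-17A + IL-36γ). Hmox1 rises from a mean of 60.3 CPM after PBS to 177 CPM after the combination, and the points of Keap1 lie between 48.3 and 59.9 CPM in all 4 groups.

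The regulators come first. Nfe2l2, which encodes NRF2 and lies on chromosome 2 at chr2:75675513-75704641 (GRCm38, minus strand), was measured at 79.7, 76.5 and 73.4 CPM in the PBS ears. The IL-17A ears gave 92.9, 83.0 and 82.6 CPM. It gave 86.1, 92.7 and 77.7 CPM with IL-36γ and 115, 101 and 89.1 CPM after the combination. All libraries of the IL-17A and of the combination group lay above those of the PBS group, while the IL-36γ group overlapped it. In edgeR the log2 fold change was 0.41 ± 0.10 (SE) after the combination, with an adjusted p of 0.00488 and a 95% interval from 0.20 to 0.62, and this was the smallest of the 6 raised members. The changes of 0.17 by IL-17A alone and 0.16 by IL-36γ alone did not pass in edgeR (adjusted p = 0.248 and 0.226).

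Keap1, the adaptor that delivers NRF2 to the ubiquitin ligase (chr9:21229730-21239361, minus strand), was measured at 58.8, 49.6 and 48.3 CPM after PBS, at 55.9, 56.6 and 53.3 CPM with IL-17A, at 59.1, 58.3 and 54.1 CPM with IL-36γ and at 59.9, 55.4 and 54.0 CPM after the combination. Every group overlapped the PBS group through PBS replicate 1. The log2 fold changes of 0.08, 0.13 and 0.11 after IL-17A, IL-36γ and the combination did not pass in edgeR (adjusted p = 0.519, 0.239 and 0.279), and the interval of the last ran from -0.06 to 0.29. Without PBS replicate 1, Keap1 was called raised by 0.23 after IL-36γ and by 0.21 after the combination (adjusted p = 0.0264 and 0.0288 in edgeR). An opposite-strand gene, Gm16754, overlaps the exons of Keap1 by 510 bases, and how strand was treated in counting was not stated.

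Among the detoxifying enzymes, Hmox1 had the largest change of the 10 genes. It encodes inducible heme oxygenase, which opens heme to biliverdin, carbon monoxide and iron, and lies at chr8:75093621-75100589 (plus strand). Its level was 73.9, 55.5 and 51.4 CPM after PBS, 141, 93.0 and 115 CPM with IL-17A, 103, 97.1 and 99.9 CPM with IL-36γ, and 190, 160 and 180 CPM after the combination. Every library of each cytokine group lay above every PBS library, and every library of the combination lay above every library of either cytokine alone. On the log2 scale IL-17A raised Hmox1 by 0.95 ± 0.15 (SE, adjusted p = 0.0122 in edgeR), and IL-36γ by 0.73 ± 0.15 (adjusted p = 0.00479). The combination raised it by 1.55 ± 0.15 (adjusted p = 2.95e-05). The IL-17A call did not survive the removal of PBS replicate 3, where edgeR gave 0.84 (adjusted p = 0.0841), or of IL-17A replicate 1, where it gave 0.75 (adjusted p = 0.0516). It was also lost when only the groups compared were fitted (0.91, adjusted p = 0.0749 in edgeR), a fit that called 20 of all genes.

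Nqo1, a quinone reductase often used as a readout of NRF2 activity (chr8:107388225-107403206, minus strand), was not called in any comparison. It was measured at 18.9, 13.9 and 15.4 CPM after PBS and at 21.2, 21.6 and 14.8 CPM after the combination. With IL-17A it was 21.1, 16.8 and 15.0 CPM and after IL-36γ 15.4, 17.0 and 12.3 CPM, so that all groups overlapped. The log2 fold change after the combination was 0.26 with a 95% interval from -0.14 to 0.65 (adjusted p = 0.264 in edgeR), an interval that reaches above the change of Nfe2l2 and ends below that of Hmox1. With 16.1 ± 2.55 CPM (SD, n = 3) after PBS, Nqo1 had the lowest CPM of the 10 genes.

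Of the 3 genes of glutathione metabolism, Gclm and Gsr were raised after the combination and Gclc was not called. Gclc and Gclm encode the catalytic and the modifier subunit of glutamate-cysteine ligase, the enzyme of the rate-limiting step of glutathione synthesis, and Gsr encodes glutathione reductase, which returns oxidized glutathione to its reduced form. Gclc (chr9:77754535-77794485, plus strand) was at 50.5, 46.0 and 43.6 CPM after PBS, 46.5, 45.3 and 45.9 CPM with IL-17A, 40.3, 43.2 and 46.5 CPM with IL-36γ, and 41.7, 44.7 and 37.7 CPM after the combination. It was the only one of the 10 genes with a mean below PBS in all cytokine groups, although none of these differences passed, the farthest from 0 being a log2 fold change of -0.17 after the combination (adjusted p = 0.101 in edgeR, 95% interval -0.35 to 0.003). Scaled by library size alone, Gclc was called lowered after IL-36γ (-0.253, adjusted p = 0.0423) and after the combination (-0.316, adjusted p = 0.0109, edgeR), and it was also called lowered after the combination without replicate 2 of that group (-0.245, adjusted p = 0.0493).

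Gclm (chr3:122245557-122270732, plus strand) gave 30.5, 22.9 and 22.6 CPM after PBS, 35.7, 31.1 and 31.5 CPM with IL-17A, 33.1, 35.7 and 31.7 CPM with IL-36γ, and 42.0, 46.1 and 36.7 CPM after the combination. All libraries of each cytokine group lay above those of the PBS group. The log2 fold change was 0.71 ± 0.12 after the combination (adjusted p = 0.000653) and 0.40 after IL-36γ (adjusted p = 0.0273), while the 0.37 after IL-17A did not pass (adjusted p = 0.0667, SE in edgeR). The call after IL-36γ was lost when any of PBS replicate 2, PBS replicate 3, IL-36γ replicate 1 or IL-36γ replicate 2 was left out, with log2 fold changes of 0.33, 0.33, 0.39 and 0.36. Reads of 76 bases in the exons of Gclm can also match other genes, at most 3.48% of positions for Gm17494 and 2.82% for Ppia.

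Because the subunits of the ligase are made from separate genes, their counts were also compared within each library, a comparison chosen after the values were seen. The ratio of Gclm to Gclc counts was 0.603, 0.499 and 0.518 after PBS, 0.767, 0.688 and 0.686 after IL-17A, 0.822, 0.825 and 0.683 after IL-36γ, and 1.01, 1.03 and 0.973 after the combination. The groups did not overlap between PBS and any cytokine group, and the exact permutation test on log2 ratios gave p = 0.1 (two-sided) for each, which is the smallest p that 3 against 3 libraries allow. The mean ratio was 0.540 ± 0.0557 after PBS and 1.00 ± 0.0286 after the combination (SD, n = 3). Since both counts come from the same library, this ratio does not depend on the scaling of the libraries.

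Gsr (chr8:33652523-33698163, plus strand) was at 37.5, 31.1 and 28.1 CPM after PBS, 44.0, 37.2 and 40.3 CPM with IL-17A, 47.7, 56.6 and 43.9 CPM with IL-36γ, and 68.2, 56.0 and 55.2 CPM after the combination. The IL-36γ and combination libraries all lay above PBS, and IL-17A replicate 2 fell just below PBS replicate 1. The log2 fold change was 0.62 ± 0.13 after IL-36γ (adjusted p = 0.0047) and 0.89 ± 0.13 after the combination (adjusted p = 0.00023), against 0.33 after IL-17A, which did not pass (adjusted p = 0.107, SE in edgeR).

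**Figure D2:**
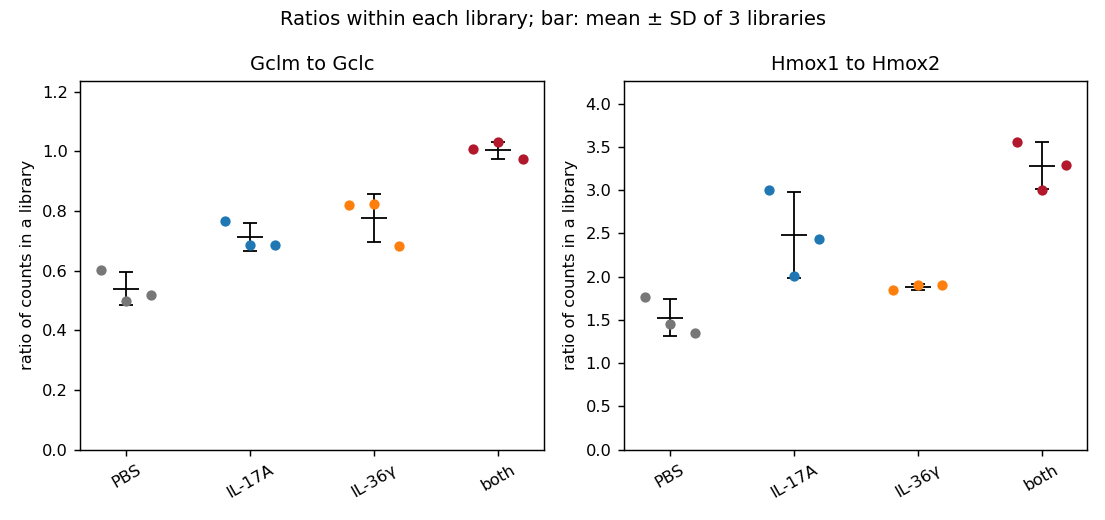
Ratio of Gclm to Gclc counts (left) and of Hmox1 to Hmox2 counts (right) in each of the 12 libraries, with mean and SD of 3 libraries per group and axes starting at 0. The Gclm to Gclc ratio lies between 0.499 and 0.603 after PBS and between 0.973 and 1.03 after the combination.

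In the thioredoxin branch, Srxn1 was raised in each cytokine group and Txnrd1 in none. Srxn1 encodes sulfiredoxin, which repairs overoxidized peroxiredoxins, and lies at chr2:152105516-152111376 (plus strand). It was at 40.0, 31.9 and 31.9 CPM after PBS, 42.5, 43.6 and 43.8 CPM with IL-17A, 44.9, 46.8 and 40.4 CPM with IL-36γ, and 53.8, 48.6 and 47.1 CPM after the combination. All cytokine libraries lay above all PBS libraries, by a margin of under 1 CPM for the lowest IL-36γ library. The log2 fold changes after IL-17A, IL-36γ and the combination were 0.33, 0.35 and 0.53, each ± 0.10 (SE), with adjusted p-values of 0.0491, 0.0181 and 0.000977 in edgeR. The IL-17A call held in 1 of 12 fits that each left out a library, the one without PBS replicate 1. The IL-36γ call was lost without PBS replicate 2 or 3 and without IL-36γ replicate 1 or 2, where the log2 fold change was 0.29 to 0.32.

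Txnrd1, the cytosolic thioredoxin reductase (chr10:82833951-82897712, plus strand), was at 112, 99.0 and 97.3 CPM after PBS, 78.3, 110 and 114 CPM with IL-17A, 114, 119 and 109 CPM with IL-36γ, and 142, 89.5 and 121 CPM after the combination. The spread within the IL-17A and combination groups covered the whole PBS range. The log2 fold changes of -0.03, 0.15 and 0.19 did not pass in edgeR (adjusted p = 0.926, 0.513 and 0.354), and the interval of the last ran from -0.16 to 0.54.

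G6pdx encodes glucose-6-phosphate dehydrogenase, the entry enzyme of the pentose phosphate pathway, which supplies the NADPH used by both reductases. It lies on the X chromosome at chrX:74409483-74429194 (minus strand), where the opposite-strand gene Ikbkg overlaps its exons by 418 bases. Its level was 115, 80.3 and 79.3 CPM after PBS, 111, 103 and 108 CPM with IL-17A, 148, 145 and 130 CPM with IL-36γ, and 189, 173 and 151 CPM after the combination. IL-17A overlapped PBS only through PBS replicate 1, and the libraries of the other groups lay above PBS. The log2 fold change was 0.63 ± 0.13 after IL-36γ (adjusted p = 0.00488) and 0.90 ± 0.13 after the combination (adjusted p = 0.000253), against 0.23 after IL-17A (adjusted p = 0.254, SE in edgeR). Without PBS replicate 1, edgeR called the change by IL-17A, at 0.43 (adjusted p = 0.00943).

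**Figure D3:**
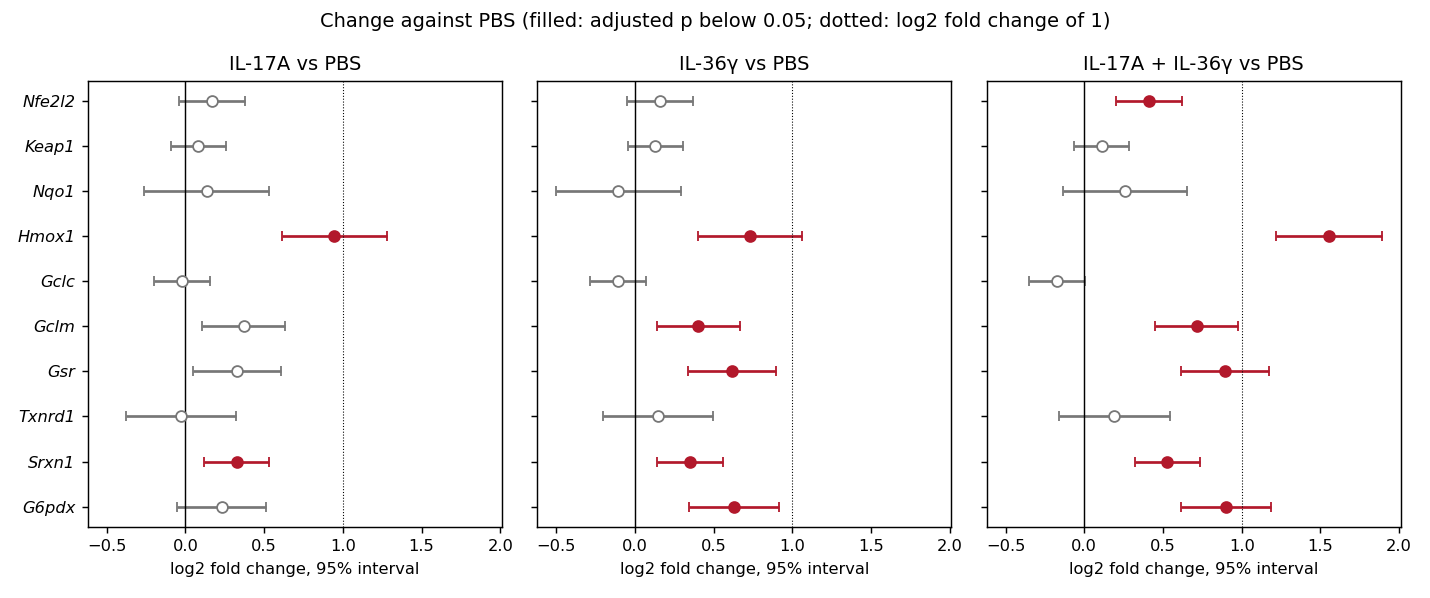
Log2 fold change against PBS (horizontal axis) with its 95% interval for the 10 genes after IL-17A, IL-36γ and the combination, each group with 3 libraries. Filled symbols mark an adjusted p below 0.05 in edgeR, and the dotted line marks a log2 fold change of 1, which Hmox1 passes at 1.55 after the combination.

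Without PBS replicate 1, the log2 fold changes after the combination were 1.73 for Hmox1, 1.10 for G6pdx, 1.02 for Gsr, 0.87 for Gclm, 0.65 for Srxn1 and 0.44 for Nfe2l2, so that 3 genes passed 1. Leaving out this library, the highest of the PBS group for all 10 genes, raises their changes by construction. The changes by IL-17A in that fit were 1.12 for Hmox1, 0.53 for Gclm and 0.45 for both Gsr and Srxn1, all called by edgeR. Over all 12 libraries, the 10 genes had a median log2 fold change of 0.20 with IL-17A, 0.25 with IL-36γ and 0.47 with both, beside 0.04, -0.02 and -0.03 over all tested genes. Libraries of the cytokine group lay wholly above PBS for 4 genes with IL-17A, 5 with IL-36γ and 6 with both, and wholly below for none. Of all tested genes, 19.6%, 22.4% and 27% lay wholly above PBS.

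Whether the combination went beyond each cytokine was tested next. Against IL-17A, 4 genes were higher after the combination, beside 32.7% of all genes called in either direction and 15.1% raised. These were G6pdx (0.67 ± 0.13, adjusted p = 0.00286), Hmox1 (0.61 ± 0.15, adjusted p = 0.00992), Gsr (0.56 ± 0.13, adjusted p = 0.0062) and Gclm (0.34 ± 0.12, adjusted p = 0.0462), each as log2 fold change and SE in edgeR. Nfe2l2 (0.24) and Srxn1 (0.20) did not pass in edgeR (adjusted p = 0.0768 and 0.124). The libraries of the combination lay wholly above those of IL-17A for 5 genes and wholly below for 1, Gclc, beside 23% and 25.4% of all genes. The call of Gclm was lost in 5 of the fits that left out 1 library, without IL-17A replicate 2 or 3, IL-36γ replicate 2, or replicate 1 or 2 of the combination.

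Against IL-36γ, none of the 10 genes was called by edgeR, beside 0.0206% of all genes, and 3 had an unadjusted p below 0.05. The DESeq2 likelihood ratio test called 1, Hmox1, when fitted on all libraries and 3 when fitted on the 2 groups, beside 731 and 1235 of all genes, where edgeR called 4. Hmox1 was the member with the largest difference: all 3 libraries of the combination lay above those of the IL-36γ group, and the log2 fold change was 0.82 ± 0.15 with a 95% interval from 0.49 to 1.15 (unadjusted p = 0.000149, adjusted p = 0.0927 in edgeR). Its adjusted p ranged from 9.47e-21 to 0.397 over 20 alternative settings and passed in 3 of them. The next largest differences were 0.36 for Nqo1, 0.31 for Gclm and 0.27 for both Gsr and G6pdx, with adjusted p-values of 0.369, 0.259, 0.333 and 0.347 in edgeR. The median difference was 0.26 for the 10 genes and 0.00 over all genes, and the libraries lay wholly above those of IL-36γ for 4 members, beside 9.33% of all genes.

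Between the single cytokines, edgeR called none of the 10 genes, beside 7.98% of all genes, with 2 at an unadjusted p below 0.05, and DESeq2 called 1 on all libraries and 2 on the 2 groups, beside 3001 and 3510 of all genes, where edgeR called 1548. G6pdx was higher after IL-36γ than after IL-17A by 0.40 ± 0.13 on the log2 scale, with no overlap of the libraries (adjusted p = 0.0815 in edgeR), as for 15.6% of all genes, and passed in 7 of 20 alternative settings. Gsr differed by 0.29 in the same direction and Hmox1 by -0.22, neither passing in edgeR (adjusted p = 0.185 and 0.402).

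The interaction compares the effect of adding IL-17A to IL-36γ with that of adding it to PBS, and was called for none of the 10 genes by edgeR or by DESeq2, beside 0.551% of all genes in edgeR, and the lowest unadjusted p in edgeR was 0.294, for Srxn1. For Hmox1 the interaction was -0.12 on the log2 scale with a 95% interval from -0.59 to 0.34, for Srxn1 -0.15 and for Nqo1 0.23. On the linear scale, the excess of the combination over the sum of the separate rises above PBS was 21.0 ± 17.9 CPM for Hmox1 and 13.8 ± 17.0 CPM for G6pdx (SE), and for none of the 10 genes was it larger than 1.18 SE, the value of Hmox1. The log2 interval of Hmox1 takes in departures in both directions from a sum of the log2 changes. That reference differs from the sum of the rises in CPM.

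Levels can be compared between genes only per length. After PBS, Hmox1 stood highest with 34.4 CPM per kb of exon, above 94.6% of 19360 genes, and G6pdx followed with 29.7 and Nfe2l2 with 20.2 CPM per kb. Txnrd1, Gclc, Srxn1, Gsr, Keap1 and Nqo1 lay close together between 14.5 and 10.3 CPM per kb, and Gclm was lowest with 4.03 CPM per kb, above 53.4% of genes. After the combination Hmox1 reached 101 and G6pdx 55.5 CPM per kb.

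The raised members varied together over the 12 libraries. The Pearson correlation of log2 CPM was 0.964 between Gsr and G6pdx and 0.937 between Gclm and Srxn1, whereas Gclc and Gsr gave -0.491. Keap1, which was not called, gave 0.792 with Srxn1. These are descriptions over libraries that share their 4 treatments, so genes called for the same treatments correlate in part by that choice. The genes most alike to Nfe2l2 in this measure were Tmprss11b (0.960), 1110038B12Rik (0.957), Dsc2 (0.954), Phb (0.950) and Bop1 (0.949). For Hmox1 they were Oscp1 (0.977), Dpagt1 and Nedd1 (0.958 each), Dsg3 and Tubb6 (0.953 each), and for Gclc, the member with the most negative change, they were Zfp580 (0.911), Sos2 (0.901), Fam161a (0.893), Pias3 (0.891) and Zfp609 (0.869).

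The wider pathway was read from 9 lists of genes. After the combination, 9 of 17 tested genes of the glutathione system were raised and 2 lowered, and 11 of 24 other NRF2 targets were raised and 6 lowered. These and the following list counts stand beside 23.7% of all tested genes raised and 44.6% called in either direction. The list medians were 0.36 for both, beside -0.03 over all genes. Slc7a11, which imports cystine for glutathione synthesis, stood in both lists and rose from 11.7, 18.0 and 6.00 CPM after PBS to 339, 215 and 128 CPM after the combination, a log2 fold change of 4.25 ± 0.55 (SE, adjusted p = 0.000127 in edgeR). It was at 37.0, 18.0 and 18.1 CPM with IL-17A and at 63.9, 120 and 36.6 CPM with IL-36γ, where it was called (2.63, adjusted p = 0.00375 in edgeR). Glutaredoxin Glrx (1.92), the glutathione peroxidase Gpx2 (1.58), the conjugate exporter Abcc3 (1.25) and the aldo-keto reductase Akr1b8 (1.34) rose past a log2 fold change of 1, and the aldehyde oxidase Aox1 fell (-1.08).

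Of the glutathione transferases, which join glutathione to electrophiles, 5 of 22 were raised and 8 lowered after the combination, with a median of -0.21, beside the same 23.7% raised and 44.6% called of all genes. Gsta4, which acts on the lipid peroxidation product 4-hydroxynonenal, rose by 2.94 on the log2 scale, and Gsta1 (1.46), Gsto1 (1.06) and Mgst2 (1.02) rose, while Gsta3 (-1.17) and Gsto2 (-1.15) fell. Gsto2 lost its call in 3 of the fits that left out 1 library (without PBS replicate 3 and replicates 2 and 3 of the combination). Of the thioredoxin and peroxiredoxin genes, 6 of 14 were raised and 2 lowered, and of the genes that supply NADPH 4 of 9 were raised and none lowered, none of them past a log2 fold change of 1.

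Of the 12 partners and repressors of NRF2 (small MAF proteins, BACH factors, relatives and ubiquitin ligase parts), 1 was raised and 4 were lowered after the combination. This was near the 44.6% of all tested genes called in either direction, with 23.7% raised. The raised one was Nfe2, the p45 subunit of NF-E2 known from blood cell lineages, which went from 0.163 ± 0.160 to 2.19 ± 0.392 CPM (SD, n = 3, log2 fold change 3.72). Of the dismutases and catalase 2 of 4 were raised and 1 lowered.

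On the side of oxidant production, 9 of 15 tested genes were raised and 3 lowered after the combination, with a median of 0.87. The raised ones included Rac2 (2.17), Cybb (1.76) and Ncf1 (1.44), parts of the phagocyte NADPH oxidase, and Nos2, the inducible nitric oxide synthase (2.84-fold), while Duox2 (-1.48), an epithelial dual oxidase, and its maturation factor Duoxa2 (-1.56) fell. Nos2 was at 0.696 ± 0.479 CPM (SD, n = 3) after the combination, and its call was lost without any 1 PBS library and without replicate 1 of the combination, where the log2 fold change was 0.80. Duoxa2, at 0.121 CPM after the combination, lost its call without replicate 2 of the combination.

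In the heme and iron list, which is the context of Hmox1, 8 of 12 tested genes were raised and none lowered after the combination. Lcn2, which binds iron-carrying siderophores, rose by 5.40 on the log2 scale, the hemopexin gene Hpx by 2.60 and the haptoglobin gene Hp by 1.32. Hmox2, the constitutive heme oxygenase, was itself raised, by 0.25, 0.43 and 0.45 on the log2 scale with IL-17A, IL-36γ and both (adjusted p = 0.0288, 0.000475 and 0.000144 in edgeR). The ratio of Hmox1 to Hmox2 counts, also chosen after the values were seen, was 1.77, 1.46 and 1.35 after PBS, 3.00, 2.01 and 2.43 after IL-17A, 1.85, 1.90 and 1.90 after IL-36γ, and 3.55, 3.00 and 3.29 after the combination. Every cytokine group lay above PBS (exact permutation p = 0.1, two-sided, the smallest possible), with means of 2.48, 1.88 and 3.28 against 1.53. The log2 differences of the ratio were 0.69, 0.31 and 1.11, smaller than those of Hmox1 itself.

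The lists were also counted after the single cytokines. IL-36γ raised 6 genes of the glutathione system, 10 of the other targets with 3 lowered, 3 transferases with 2 lowered, 4 thioredoxin genes, 2 NADPH genes, 8 oxidant producers with 1 lowered, 8 heme and iron genes with 1 lowered, 2 of the dismutases and catalase, and 1 partner or repressor with 2 lowered. IL-17A raised 2, 6 (1 lowered), 2, 4, 0, 5, 5, 1 and 0 genes of the same lists. In all, 26 of 124 tested genes of the lists were called with IL-17A, 51 with IL-36γ and 77 with both, beside 10.9%, 28.4% and 44.6% of all tested genes. When PBS replicate 1 was left out, 54, 61 and 80 list genes were called, beside 4571, 7332 and 9716 of all genes. The lowest counts on leaving out a library were 1 and 28 without PBS replicate 3 and 61 without PBS replicate 2.

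**Figure D4:**
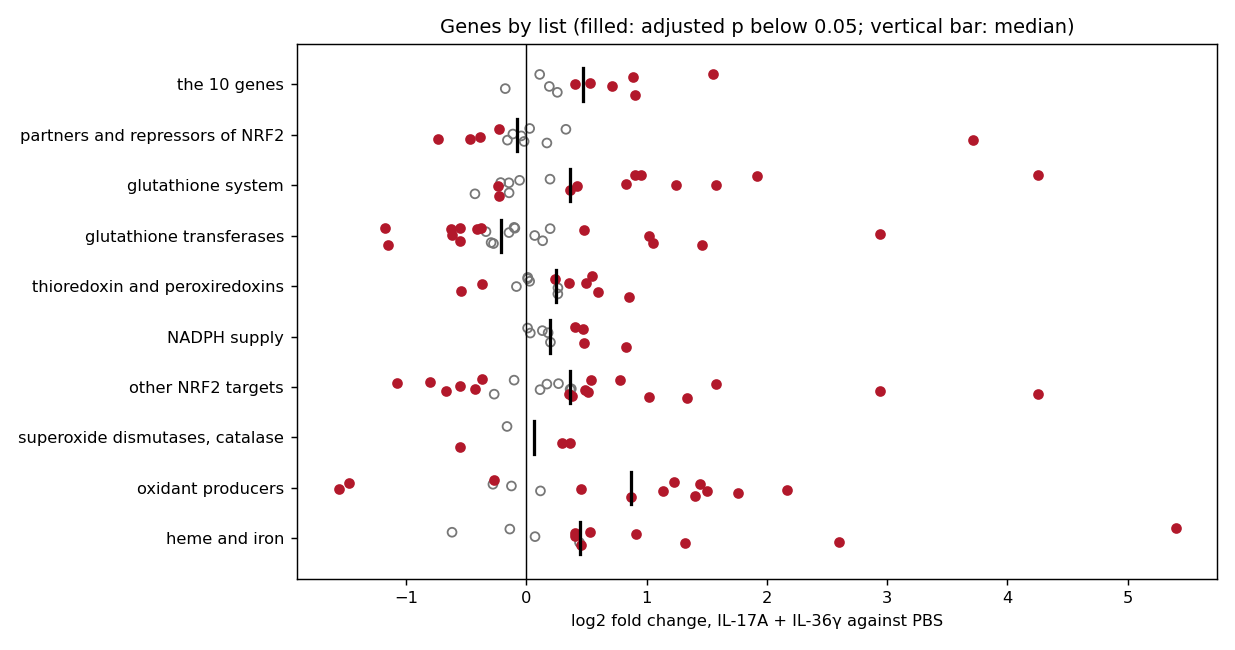
Log2 fold change of the combination against PBS (horizontal axis) for the 10 genes and the 9 lists, 1 point per gene, filled where the adjusted p is below 0.05 in edgeR, with a vertical bar at the median of each list. A gene that stands in several lists, such as Slc7a11 at 4.25, is drawn in each of them.

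Marker genes of several cell types moved along with the members. In unsorted tissue, fewer cells of a type and less RNA per cell cannot be told apart. RNA came from 1 part of the ear, and whether these parts were alike between mice was not tested. Marker counts below stand beside 7.44%, 17.3% and 23.7% of all tested genes raised by IL-17A, IL-36γ and both. Called in either direction were 10.9%, 28.4% and 44.6%. On leaving out 1 library, the calls of all genes after IL-17A ranged from 21 to 4571. All 10 keratinocyte markers were detected in each group, with 2 raised by IL-17A, 6 by IL-36γ and 5 by both. Krt15, a keratin of basal cells, was lowered by IL-36γ (-0.69) and by both (-1.18) on the log2 scale (adjusted p = 0.0053 and 0.000106 in edgeR). Their summed level was 14239 to 19990 CPM after PBS, 20228 to 22105 after IL-17A, 24533 to 33403 after IL-36γ and 30962 to 36896 after the combination, and that of the 4 stress keratins rose from 325 to 526 CPM after PBS to 6261 to 10593 after the combination. The 6 proliferation genes summed to 320 to 645 CPM after PBS and to 1439 to 1635 after the combination.

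Neutrophil markers were scarce after PBS and abundant after the combination. The sum of 10 such genes was 20.4 to 100 CPM after PBS, 387 to 883 after IL-17A, 2287 to 4846 after IL-36γ and 7623 to 10059 after the combination, and all 8 that could be tested were raised after the combination. The 10 genes include S100a8 and S100a9, whose products the study describes as also coming from macrophages and keratinocytes. The sum is therefore not a measure of neutrophils alone. Ly6g was at 0 in all PBS libraries. Mpo and Elane had too few counts to be tested, and Elane was at 0 after each single cytokine but not after PBS or the combination. Macrophage markers summed to 652 to 755, 951 to 1343, 1438 to 1640 and 1292 to 1456 CPM in the same order, so that their range after the combination overlapped that after IL-36γ. Of these 10 genes, 7 were raised by IL-17A, 9 by IL-36γ and 8 by both, and 1, Mertk, a receptor for the uptake of dying cells, was lowered by both (log2 fold change -0.27, adjusted p = 0.0475 in edgeR).

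Red blood cell genes, which bear on heme, were at 61.6 to 105 CPM after PBS, 130 to 332 after IL-17A, 82.2 to 147 after IL-36γ and 63.8 to 120 after the combination, and all 6 were called raised after IL-17A and none after IL-36γ or the combination. Skeletal muscle markers ranged from 485 to 3844 CPM after PBS and from 291 to 1491 after the combination, and adipocyte markers from 203 to 281 and from 76.1 to 146 CPM. Fibroblast markers (8732 to 10652 and 6543 to 8025 CPM), cartilage markers (231 to 315 and 114 to 153) and sebaceous markers (6131 to 9953 and 3268 to 4069) were lower after the combination than after PBS in every library, while endothelial markers (144 to 181 and 143 to 151) overlapped. The part of these shifts in the changes of the 10 genes was not tested.

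**Figure D5:**
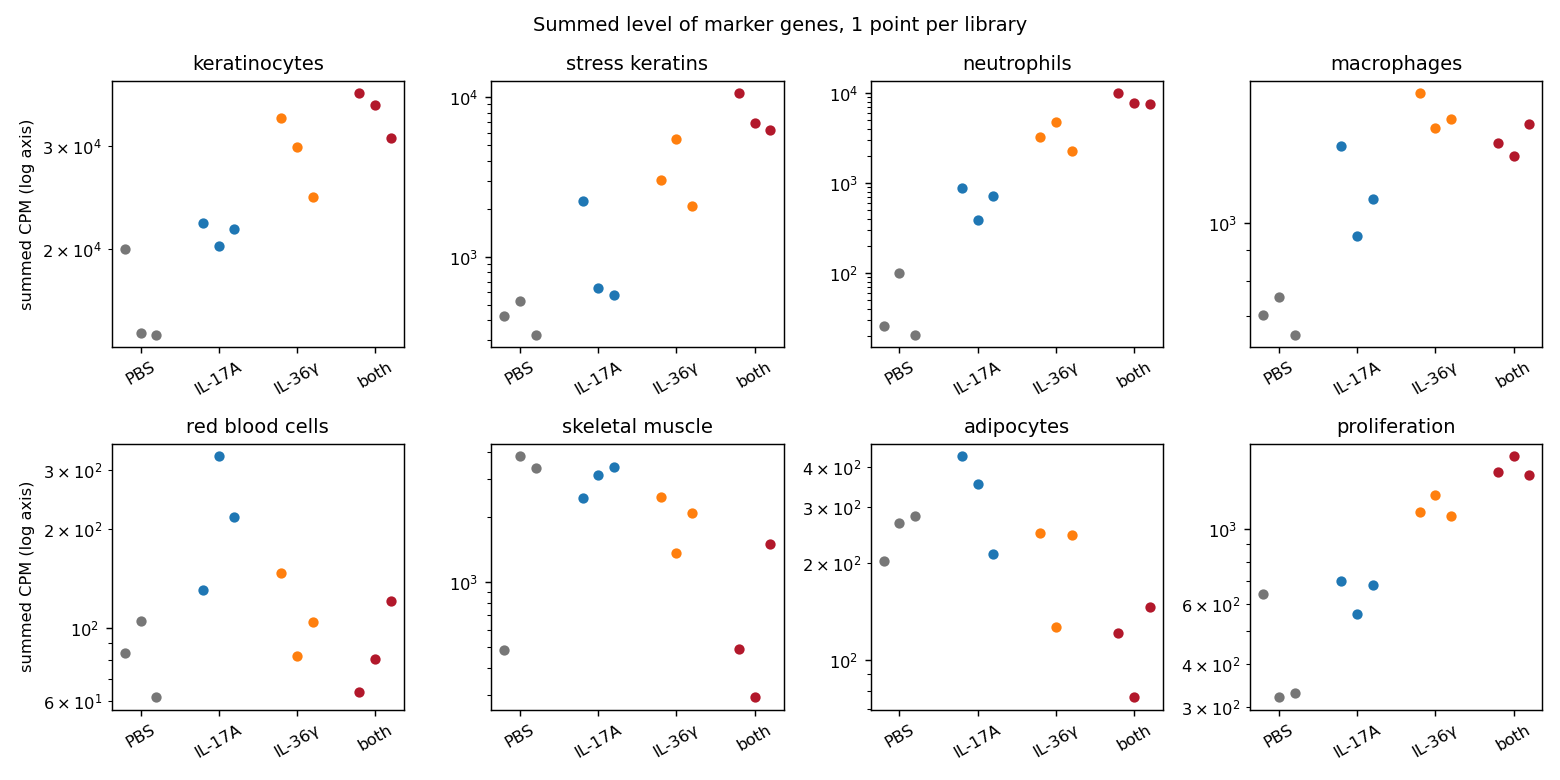
Summed CPM of 8 sets of marker genes (vertical log axes) in the 12 libraries, 1 point per mouse in the order of the replicate numbers. PBS replicate 1 has 485 CPM of muscle genes against 3844 and 3357 in the other PBS libraries, and neutrophil genes reach 7623 to 10059 CPM after the combination. The neutrophil set includes S100a8 and S100a9, which are not particular to neutrophils.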

How the data were processed

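Total RNA of mouse ears was sequenced from 12 libraries, 3 for each of the 4 treatments (TruSeq Stranded Total RNA kit, paired reads of 76 bases). Per the submitters' processing notes and the study's methods, the authors aligned reads to mm10 with STAR 2.5.2b and assigned them to Ensembl genes with featureCounts of Subread 1.5.1, and the deposited table holds these raw counts for 50684 genes. The strand setting of the counting and the annotation release were not given in the sources used here. Deposited tables of the authors' own comparisons (fold changes and p-values by DESeq2 1.30.0) were used only for gene symbols. Totals of 25293468 to 34759293 counts per library set the precision, and 16630 genes had no count.

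Genes were filtered with filterByExpr (minimum count 10), scaled by TMM and fitted with glmQLFit and glmQLFTest of edgeR 4.0.16 (R 4.3.3, limma 3.58.1) on all 12 libraries with 1 mean per group, without a replicate block, and p-values were adjusted by Benjamini-Hochberg over 19408 genes. SEs were derived from the F statistic, and intervals are 95%. A log2 fold change of 1 is the study's own threshold. The common biological coefficient of variation was 14.2%. The scripts were tested on simulated data. No libraries of a group were duplicates. The labels give no batch, and p-values measure the spread between mice. Counts of exon positions shared with other genes, ratios of counts, and motif matches in RefSeq promoters were computed as stated beside the results, and positions are those of GENCODE vM21 (GRCm38).

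Alternatives were DESeq2 1.42.0 (likelihood ratio test), other scalings and filters, only the groups compared, a block for the replicate number, removal of each library in turn, and a fold threshold. DESeq2 on only the groups compared, and the alternatives for the lists, were added after seeing the data. The 10 genes and all lists were chosen with earlier results of these data known. Genes named are the 10 members, the genes of each list that passed the fold threshold after the combination (up to 4 in each direction), and the 5 genes most correlated with Nfe2l2 and with the most raised and most lowered member (log2 CPM, prior count 2). Hmox2 and the Gclm to Gclc ratio were chosen after their values were seen.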

Additional observations from a re-analysis of the deposited data

Results flagged for a closer look

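None of the 10 NRF2 pathway genes passed the test of a difference in the response to IL-17A with and without IL-36γ. Of the 124 tested genes of the wider lists, 3 passed the test of that difference in edgeR, beside 0.551% of all tested genes. Gpx8, a glutathione peroxidase of the endoplasmic reticulum, was at 18.3, 17.6 and 19.6 CPM after PBS and at 28.4, 26.9 and 23.3 CPM after IL-17A. It was at 21.5, 19.1 and 18.7 CPM after IL-36γ and at 16.1, 17.1 and 17.0 CPM after the combination. The IL-17A libraries thus stood above all others. The change by IL-17A was 0.50 without and -0.24 with IL-36γ, a difference of -0.74 ± 0.13 on the log2 scale (SE, adjusted p = 0.0429 in edgeR).

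Sod3, the extracellular superoxide dismutase, changed by 0.67 without and by -0.23 with IL-36γ, a difference of -0.90 ± 0.15 (SE, adjusted p = 0.0429 in edgeR). It was at 28.6, 24.7 and 22.6 CPM after PBS, at 42.6, 39.1 and 39.1 CPM after IL-17A, at 41.0, 35.3 and 32.5 CPM after IL-36γ and at 28.4, 30.7 and 33.8 CPM after the combination. Lcn2 changed by 2.75 without and by 1.13 with IL-36γ, a difference of -1.62 ± 0.30 (SE, adjusted p = 0.0475 in edgeR), so that it rose by less on the log2 scale where IL-36γ was present. Each of the 3 calls held in 3 of 12 fits that left out a library. Over all 18 alternatives they held in 7 for Gpx8, 7 for Lcn2 and 8 for Sod3, with adjusted p-values of 3.24e-05 to 0.145, 0.000757 to 0.145 and 7.74e-06 to 0.141. The difference kept its sign in all of them.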

How the results depend on the processing

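Leaving out 1 library at a time, the number of the 10 genes called by edgeR ranged from 0 to 5 after IL-17A (0 without PBS replicate 3, also 0 without IL-17A replicate 1, 5 without PBS replicate 1), from 3 to 6 after IL-36γ, from 6 to 7 after the combination, from 3 to 5 for the combination against IL-17A, from 0 to 1 for IL-36γ against IL-17A, and was 0 for the combination against IL-36γ and for the interaction. The calls of all genes after IL-17A ranged from 21 (without PBS replicate 3) to 4571 (without PBS replicate 1), so that the IL-17A counts rest on single libraries. They ranged from 2987 to 7332 after IL-36γ, 6412 to 9716 after the combination and 4114 to 7245 for the combination against IL-17A. For IL-36γ against IL-17A they were 201 to 2394, for the combination against IL-36γ 0 to 209 and for the interaction 1 to 1534. Over the lists the calls ranged from 1 to 54, 28 to 61, 61 to 80, 37 to 59, 5 to 22, 0 to 3 and 0 to 16 in the same order, beside 26, 51, 77, 52, 16, 0 and 3 of 124 genes.

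After IL-17A, 1 member was called with DESeq2-type size factors, with library size only, without a filter and with at least 10 counts in every library. The calls over all genes were then 1752, 2480, 1777 and 2002. When only the groups compared were fitted, 0 members were called, beside 20 of all genes. Fitting only the groups compared left 3 after IL-36γ, beside 4037 of all genes. A fold threshold left 0 after IL-17A, 0 after IL-36γ, 1 after the combination and 0 for the combination against IL-17A. Of all genes it left 407, 1377, 2603 and 1737 in the same order. Against IL-36γ the combination had 1 without a filter, 1 with DESeq2 and 3 with DESeq2 on the groups compared. Of all genes, 281, 731 and 1235 were called there. For IL-36γ against IL-17A there was 1 with library size only, without a filter, with only the groups compared and with DESeq2, and 2 with DESeq2 on the groups compared. Calls over all genes were 1511, 1679, 1772, 3001 and 3510 in the same order. For the lists, the interaction had 1 call with DESeq2-type size factors, 0 with library size only, 7 without a filter and 17 with DESeq2. Over all genes, DESeq2-type size factors gave 8 raised and 30 lowered, and library size only gave 1 raised and 2 lowered. The combination against IL-36γ had 2 without a filter, 9 with DESeq2 and 18 with DESeq2 on the groups compared, beside the same 281, 731 and 1235. IL-17A had 1 with only the groups compared, where 20 of all genes were called, and 43 with DESeq2. IL-36γ against IL-17A had 30 with DESeq2 and 33 with it on the groups compared, beside the same 3001 and 3510. The cause of these shifts was not tested.

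Scaling by library size only moved the median of all genes against PBS to -0.13, -0.16 and -0.17 after IL-17A, IL-36γ and the combination, and the share of raised among all calls from 68.1% to 19.6%, 61.0% to 33.3% and 53.2% to 35.1%, and for IL-36γ against IL-17A from 54.8% to 65.7%. Among the member values printed here, it reversed uncalled log2 fold changes of Nfe2l2 (-0.002), Keap1 (-0.087) and Nqo1 (-0.037) after IL-17A, Keap1 (-0.018) and Txnrd1 (-0.002) after IL-36γ and Keap1 (-0.029) after the combination, and the interactions of Hmox1 (0.053) and Srxn1 (0.026). The 6 genes raised by the combination were called raised under each scaling. Leaving out a library reversed 8 further uncalled values among these, which then lay between -0.048 and 0.092: Gclc (0.039, range from -0.078) and Txnrd1 (0.043, range from -0.128) after IL-17A and Nqo1 (0.031, range from -0.207) after IL-36γ without PBS replicate 1, Nqo1 (-0.048, range to 0.27) and Txnrd1 (0.092) after IL-17A and the interaction of Hmox1 (0.081, range from -0.299) without IL-17A replicate 1, Nqo1 (0.018) after IL-36γ without IL-36γ replicate 3, and Keap1 (-0.015, range to 0.078) between the combination and IL-17A without replicate 1 of the combination. Over the alternatives of these values, which cover all 10 genes against PBS and for the combination against IL-17A and some genes in the other comparisons, 971 kept direction and side of the threshold, 31 passed it newly, 36 lost it and 16 reversed. Over all 10 genes and 7 comparisons, 51 of 1380 values reversed, 36 of them on leaving out a library, and lay between -0.156 and 0.13, none called in that fit.

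The labels give the groups the same replicate numbers but do not say that these pair the mice. Deviations of same-numbered libraries correlated at -0.199 to 0.352, with 9 of 18 pairs over 0.1. Differently numbered libraries were not compared, so these values cannot decide whether the numbers pair the mice. The main fit used no block. With the replicate block, 3 members were called after IL-17A, 5 after IL-36γ, 6 after the combination, 5 for the combination against IL-17A, 1 for IL-36γ against IL-17A and 0 otherwise, with 8 list genes for the interaction. Calls over all genes moved from 2120 to 3360 after IL-17A and from 107 to 883 for the interaction.

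The 95% intervals of Keap1, Nqo1, Gclc and Txnrd1 after the combination include 0. Transcripts were measured at 1 time in unsorted tissue from part of the ear, so neither protein, enzyme activity nor the cells of origin are known.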
